A study of Mus musculus with 30 samples.

Results

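A set of 10 cytosolic heat shock genes was followed across injured and uninjured mouse kidneys: Hspa1a, Hspa1b, Hspa8, Hsph1, Dnajb1, Bag3, Hsp90aa1, Hspb1, Cryab and Hspb8. They were chosen by name, as the cytosolic chaperones and cochaperones that heat shock factor 1 is known to induce, and all 10 were found among the 57133 genes counted. Earlier results of these data were known when the choice was made. Whole-kidney poly-A RNA was sequenced in 30 libraries of wild-type mice (WT) and of mice whose genotype the labels name Gsta2-H2BeGFP (TG). Each sex gave 3 WT and 3 TG libraries without surgery. Males from which a kidney had been removed (nephrectomy, NX) gave 3 WT and 3 TG libraries. Males given nephrectomy plus ischemia-reperfusion injury (IRI), a stop and return of blood flow, gave 6 WT and 6 TG libraries at 4 hours. All IRI animals had therefore also lost a kidney, and the labels give no time for NX. Strain, age, the site of the transgene and the cells that express it are not given in the sources used here. Replicates are numbered from 0. Whether libraries of a group stem from different animals is not said in the labels, and the p-values cover only the spread among these libraries, which may be technical.

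Protein damage in a cell releases heat shock factor 1 (HSF1), a transcription factor, from chaperones that hold it inactive. HSF1 then binds repeats of a short sequence, the heat shock element, before the start of chaperone genes and raises their transcription. HSP70 proteins fold or rescue damaged proteins with the help of J proteins and nucleotide exchange factors, HSP90 matures signalling proteins, and small heat shock proteins hold unfolded proteins until HSP70 acts. Loss of ATP during ischemia unfolds proteins and detaches cytoskeleton in the kidney tubule, and chaperone induction is a well-known response of that tissue.

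Stretches before the start sites of 4 members are shown because they hold the searched form of the heat shock element and belong to genes that rose after IRI. The sequences are RefSeq promoters of the GRCm38.p6 build, the last 150 bases before the start, 5′ to 3′ along the gene, with matches in capitals. The motifs searched on both strands were GAANNTTC and TTCNNGAA, each its own reverse complement.
Hspa1a, chr17:34972157-34972306, minus strand: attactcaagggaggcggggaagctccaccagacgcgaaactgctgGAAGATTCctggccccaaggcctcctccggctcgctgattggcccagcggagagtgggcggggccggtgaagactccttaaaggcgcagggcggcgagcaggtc
Hspa1b, chr17:34959239-34959388, minus strand: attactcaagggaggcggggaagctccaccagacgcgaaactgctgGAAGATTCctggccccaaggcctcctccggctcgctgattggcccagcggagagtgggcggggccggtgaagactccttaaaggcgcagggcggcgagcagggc
Hspb1, chr5:135887769-135887918, plus strand: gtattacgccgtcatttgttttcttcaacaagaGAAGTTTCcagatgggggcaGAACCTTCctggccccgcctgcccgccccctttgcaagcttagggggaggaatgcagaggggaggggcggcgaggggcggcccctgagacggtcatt
Hsph1, chr5:149636337-149636486, minus strand: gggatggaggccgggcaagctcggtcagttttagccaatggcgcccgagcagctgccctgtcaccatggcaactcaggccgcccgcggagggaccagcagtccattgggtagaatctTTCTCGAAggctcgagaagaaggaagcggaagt

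In Hspa1a and Hspb1 the matches lie well before the start, and in Hsph1 close to it. GAAGATTC begins 104 bases before the start of Hspa1a and of Hspa1b, and the 250 bases before the starts of these neighbours differ at 3 positions (98.8% identical). In Hspb1, GAAGTTTC begins 117 and GAACCTTC 97 bases before the start, and in Hsph1 TTCTCGAA begins 33 bases before it. Hsph1 also held TTCTGGAA and GAAAGTTC, which begin 37 and 42 bases after the start and overlap to form 3 repeats in a row. Of the 7 members with a RefSeq promoter entry, 6 had a match in the window from 250 bases before to 50 bases after the start, including Bag3 and Hspb8, whose match lay after the start. Dnajb1 had none, which says only that these letters are not in its window. Hsp90aa1, Hspa8 and Cryab were not analysed here in this respect. Of 32851 promoter windows of the same length, 15.1% held either motif and 0.603% held 3 repeats in a row. A match is therefore a description and not a site of binding.

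Total counts ran from 59574069 to 91354407 in the 18 NX and IRI libraries and from 49040915 to 66446450 in the 12 libraries without surgery. Levels are CPM, the count per library scaled to equal effective library sizes, given as mean ± SD. Changes are on the log2 scale, ± SE, from edgeR's quasi-likelihood test, and a Benjamini-Hochberg adjusted p under 0.05 over all genes was taken as passing. EGFP, the counted transgene entry, had 0 counts in every WT library but the library labelled WT IRI replicate 1, which held 206 counts (2.59 CPM), where TG IRI libraries ran from 1.17 to 6.31 CPM. The members' tests that use it are also given without it. Proximal tubule markers summed to 9295 to 18000 CPM in every library, as a kidney should hold, and skeletal muscle markers to at most 1.56 CPM. Fat cell markers reached 175 CPM in WT NX replicate 0 against 0 and 0.273 CPM in the other two of that group. Gsta2, the gene named in the genotype, was at 84.6 ± 34 CPM in WT and 77.2 ± 9.7 CPM in TG libraries after IRI (n = 6 each).

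IRI against NX compares kidneys 4 hours after ischemia with kidneys of animals given nephrectomy alone. The labels give no time for NX, so ischemia cannot be told apart from a difference in time since surgery. In WT kidneys 9 of the 10 members rose, where 16.8% of all 19264 genes tested were called higher, and in TG kidneys 9 of 10 rose, where 16.4% were. The member that did not pass was Hspb8 in WT and Hspa8 in TG. In WT all IRI libraries lay above all NX libraries for 9 members, every one but Hspa8, and in TG for all 10, an order that 15% and 16.9% of all genes shared. The members' median change was 2.26 in WT and 1.94 in TG, against -0.01 over all genes tested in each. Without WT IRI replicate 1, the library with EGFP counts, the WT changes ran from 0.71 (Hspa8) to 5.62 (Hspa1a), with the same 9 members passing. The 10 members together took 0.362% ± 0.0932 of all counts in WT NX libraries (n = 3) and 1.25% ± 0.173 in WT IRI libraries (n = 6), and in TG 0.372% ± 0.0785 and 0.83% ± 0.218. Of the cell type markers, red cell genes also rose after IRI, 5 of 5 in WT and 4 of 5 in TG. So did 3 of 7 leukocyte genes in each genotype. Of 8 proximal tubule genes, 3 fell in WT and 2 in TG, where 14.1% and 13% of all genes tested were called lower. In WT 3 of 5 loop of Henle and 3 of 9 collecting duct genes rose, and none of either list rose in TG. The part of these cell types in the members' rise was not tested. In whole-kidney RNA, fewer cells of a type and less RNA per cell cannot be told apart.

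**Figure D1:**
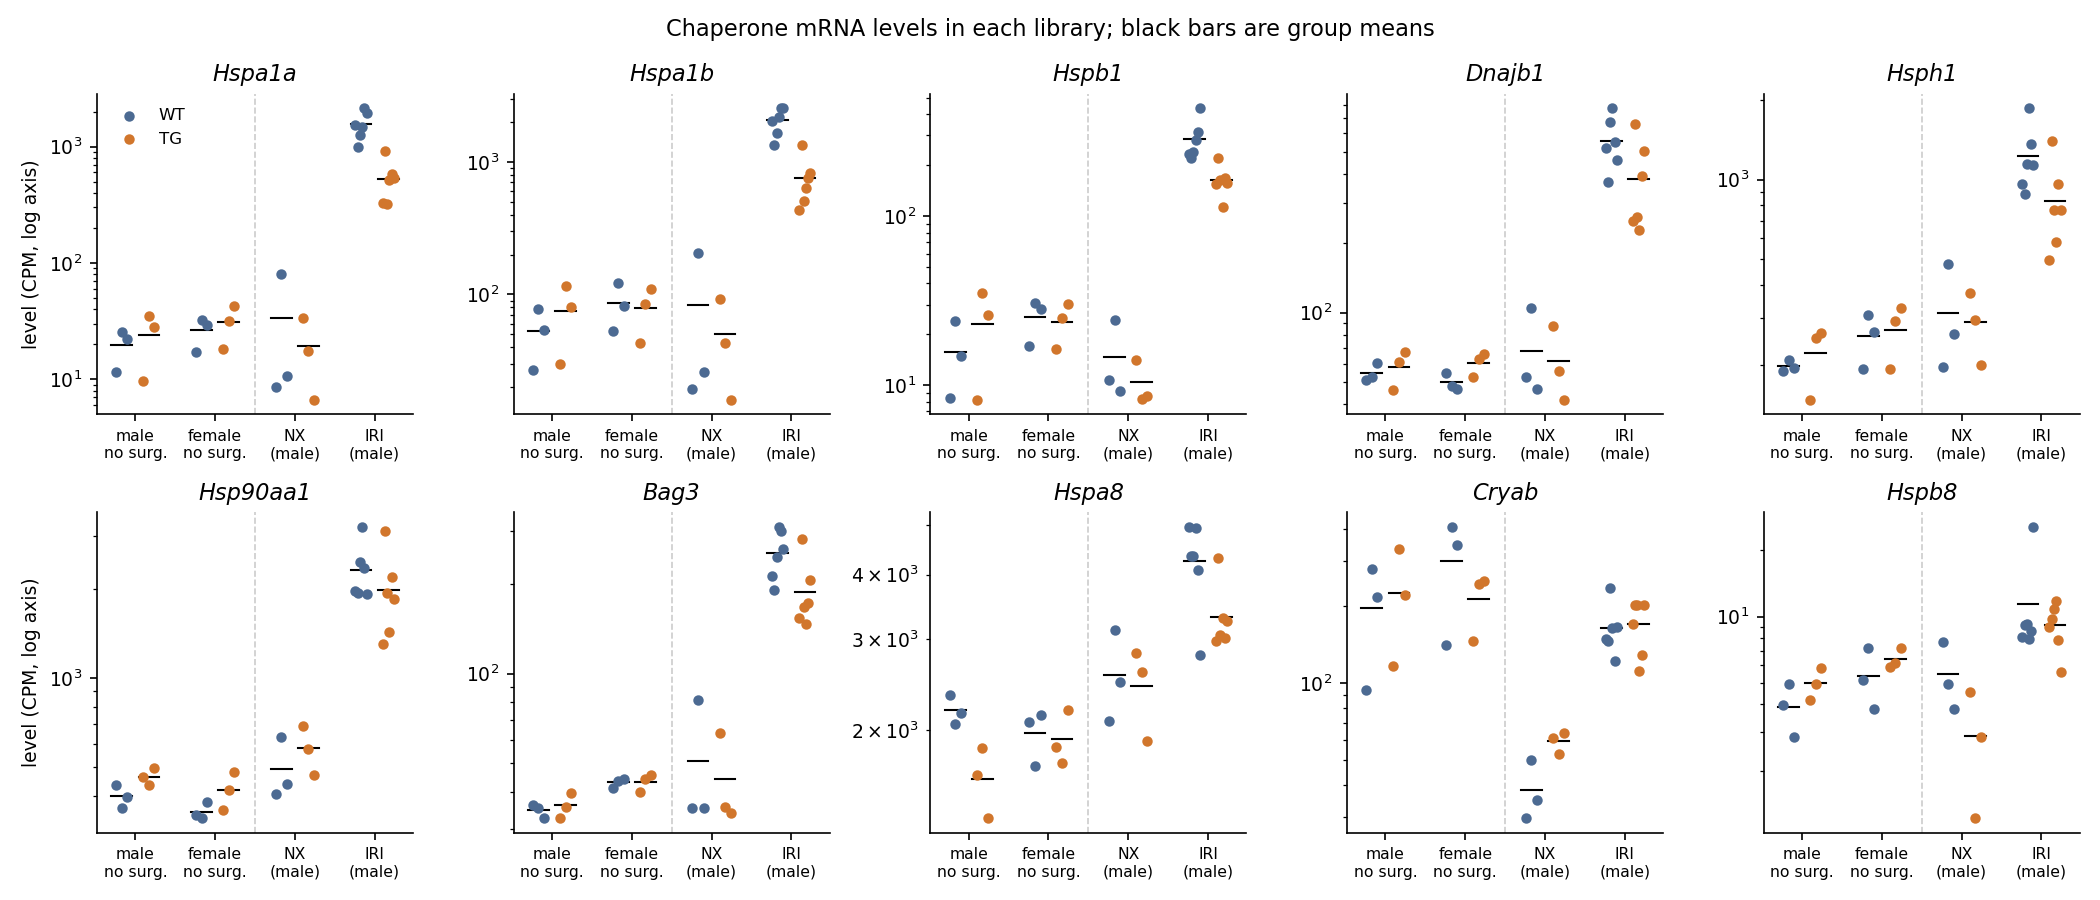
Level of each chaperone mRNA in every library (points; CPM on a log axis), by group, with WT in blue, TG in orange and group means as black bars; the dashed line parts the 2 separately counted and normalized tables. Hspa1a lay between 6.7 and 81 CPM in the NX libraries and between 324 and 2141 CPM in the IRI libraries.

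Hspa1a and Hspa1b encode the inducible HSP70, nearly the same protein from neighbouring genes on chromosome 17 (GRCm39; Hspa1a ENSMUSG00000091971, 35188166 to 35191132; Hspa1b ENSMUSG00000090877, 35175412 to 35178214; both on the minus strand). Hspa1a stood at 8.56, 81 and 10.7 CPM in WT NX replicates 0 to 2 and at 33.9, 17.5 and 6.7 CPM in the TG ones. In IRI libraries it ran from 999 to 2141 CPM in WT (median 1494) and from 324 to 910 CPM in TG (median 525). The groups did not overlap in either genotype, and the NX level itself varied most in WT, where replicate 1 was far above the other two. The change was 5.52 ± 0.74 in WT (45.8-fold, adjusted p = 1.46e-05) and 4.79 ± 0.71 in TG (27.7-fold, adjusted p = 4.17e-05). Hspa1b rose by 4.61 ± 0.74 in WT (24.4-fold, from 83.4 ± 105 to 2056 ± 480 CPM) and by 3.92 ± 0.71 in TG (15.1-fold, from 50.3 ± 38.5 to 753 ± 326 CPM). Single NX libraries set the size of these changes: without WT NX replicate 1 they were 7.32 for Hspa1a and 6.51 for Hspa1b, and without TG NX replicate 0, 5.47 and 4.69. Leaving out any other NX library lowered them, to 5.07 and 4.15 without WT NX replicate 0 and to 4.38 and 3.50 without TG NX replicate 2. Of the 150-base windows of the Hspa1a transcript, 38.1% also occur in Hspa1b (40.5% the other way), so how reads were divided between these genes is uncertain.

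Hspa8 encodes the constitutive HSP70, abundant without stress (chromosome 9, ENSMUSG00000015656, 40712280 to 40721383, plus strand). It stood at 2080, 3124 and 2474 CPM in WT NX libraries and from 2800 to 4956 CPM in WT IRI libraries (median 4354), with IRI replicate 5 the lowest and the only one below an NX library. It rose by 0.71 ± 0.18 in WT (1.64-fold, adjusted p = 0.00422). In TG it went from 2440 ± 476 to 3317 ± 506 CPM, a difference of 0.46 ± 0.17 that did not pass (adjusted p = 0.0548) although all IRI libraries lay above all NX ones. Without TG NX replicate 0 that difference passed (0.57, adjusted p = 0.0485), and without TG NX replicate 2 it was 0.31 (adjusted p = 0.284). Without TG IRI replicate 1 it was 0.36 (adjusted p = 0.113). Among the members, Hspa8 had the highest level per kb of exon in each of the 8 groups (374 to 987 CPM per kb), and inducible Hspa1b was the fourth in WT NX (29.7 CPM per kb) and the second in WT IRI (734 CPM per kb). The WT NX place rests on replicate 1, without which Hspa1b was the eighth (8.03 CPM per kb). In TG it was the sixth after NX (17.9 CPM per kb) and the third after IRI (269 CPM per kb).

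The ratio of inducible to constitutive HSP70 shows the same shift within each library. Counts per kb of Hspa1a plus Hspa1b over those of Hspa8 were 0.0201, 0.138 and 0.0223 in WT NX libraries and 0.809 to 2.39 in WT IRI libraries. In TG they were 0.0675, 0.0351 and 0.018 after NX and 0.386 to 0.784 after IRI. The mean log2 ratio was higher by 4.99 in WT (31.8-fold) and 3.97 in TG (15.7-fold), with an exact two-sided permutation p of 0.0238 in each, the smallest that 6 against 3 libraries allow (also 0.0238 after adjustment over 4 tests). All 6 TG IRI libraries lay below all 6 WT IRI libraries in this ratio, a difference for which no test was planned. Inducible HSP70 mRNA made up 28.5% of the members' counts in WT IRI libraries (22.5 to 38.3%) and 15.1% in TG IRI libraries (11.2 to 18.1%).

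**Figure D2:**
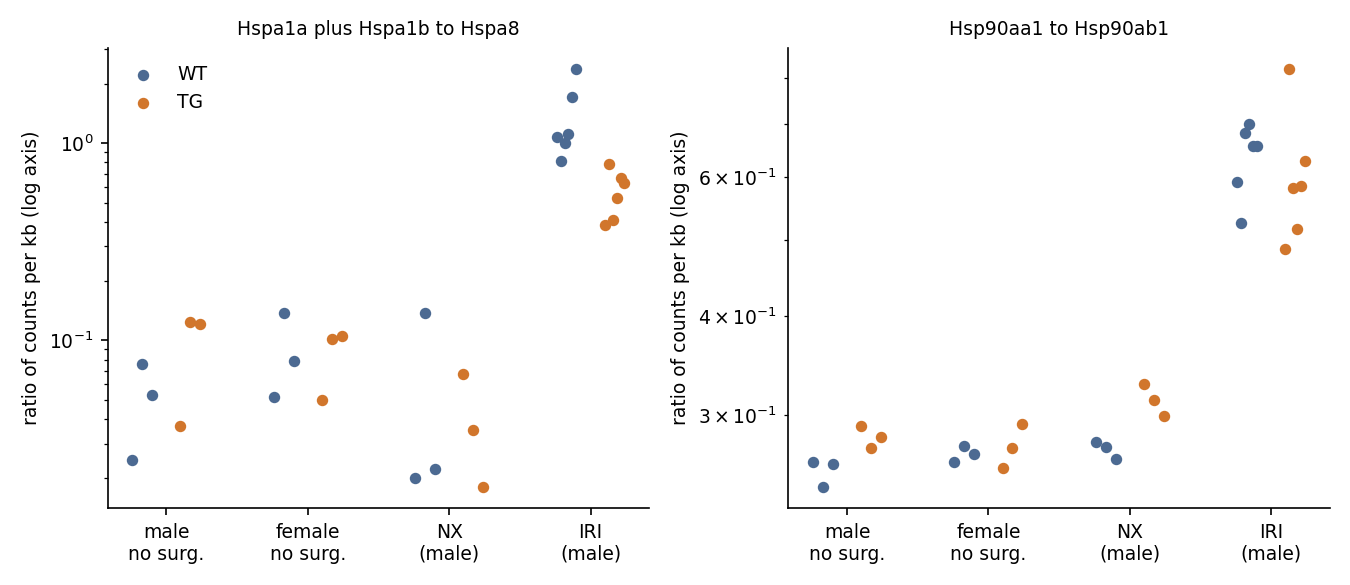
Ratios of counts per kb in each library (points, log axis), inducible HSP70 genes over constitutive Hspa8 at left and inducible Hsp90aa1 over constitutive Hsp90ab1 at right, with WT in blue and TG in orange. In both ratios every IRI library lies above every NX library of its genotype.

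Hsp90aa1 encodes the inducible cytosolic HSP90 (chromosome 12, ENSMUSG00000021270, 110657039 to 110669162, minus strand). It stood at 407, 634 and 437 CPM in WT NX and from 1913 to 3235 CPM in WT IRI libraries (median 2153), and at 688, 577 and 470 CPM in TG NX and 1301 to 3121 CPM in TG IRI libraries (median 1888). It rose by 2.21 ± 0.26 in WT (4.63-fold) and 1.78 ± 0.25 in TG (3.44-fold). The constitutive partner Hsp90ab1 rose by 0.98 in WT (1.97-fold, from 1384 ± 341 to 2760 ± 433 CPM) and by 0.82 in TG. The ratio of Hsp90aa1 to Hsp90ab1 per kb went from 0.272 ± 0.00682 to 0.635 ± 0.065 in WT (2.33-fold) and from 0.314 ± 0.0149 to 0.603 ± 0.119 in TG (1.90-fold; exact two-sided permutation p = 0.0238 each). In both chaperone families the inducible mRNA was thus higher relative to the constitutive one after IRI.

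Hsph1, Dnajb1 and Bag3 encode partners that drive the HSP70 cycle. Hsph1 (HSP110, a nucleotide exchange factor; chromosome 5, ENSMUSG00000029657, 149537752 to 149559841, minus strand) went from 197, 481 and 262 CPM to between 884 and 1859 CPM in WT, a rise of 1.95 ± 0.34 (3.87-fold), and rose by 1.53 ± 0.33 in TG. Dnajb1 (HSP40, the J protein that delivers clients to inducible HSP70; chromosome 8, ENSMUSG00000005483, 84334822 to 84339282, plus strand) went from 52.6, 105 and 46.7 CPM to between 368 and 772 CPM in WT, a rise of 3.02 ± 0.39 (8.09-fold). In TG it went from 87.4, 55.7 and 41.9 CPM to between 228 and 659 CPM, a rise of 2.65 ± 0.38 (6.26-fold). Bag3 links HSP70 to small heat shock proteins and to autophagy (chromosome 7, ENSMUSG00000030847, 128125340 to 128148705, plus strand). It went from 35.4, 81.6 and 35.3 CPM to between 191 and 311 CPM in WT (2.30 ± 0.30, 4.93-fold) and rose by 2.10 ± 0.30 in TG (4.28-fold). None of these 3 genes had an IRI library within the NX range of its genotype, and WT NX replicate 1 was the highest of its group for each.

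The small heat shock proteins moved by very different amounts. Hspb1 (HSP27, which guards actin filaments; chromosome 5, ENSMUSG00000004951, 135916773 to 135918417, plus strand) stood at 10.8, 24.4 and 9.2 CPM in WT NX and from 220 to 436 CPM in WT IRI libraries (median 262). In TG it stood at 14.2, 8.29 and 8.69 CPM after NX and from 114 to 221 CPM after IRI (median 161). It rose by 4.26 ± 0.34 in WT (19.2-fold) and by 3.98 ± 0.34 in TG (15.8-fold). Actin filaments of the proximal tubule are a known site of ischemic damage.

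Cryab, the alpha-B crystallin that the renal medulla holds in large amounts (chromosome 9, ENSMUSG00000032060, 50662625 to 50667936, plus strand), stood at 29.7, 50 and 34.9 CPM in WT NX and 61.1, 52.9 and 64 CPM in TG NX libraries. After IRI it ran from 123 to 235 CPM in WT (median 156) and from 112 to 203 CPM in TG (median 186). It rose by 2.08 ± 0.23 in WT (4.23-fold) and by 1.53 ± 0.22 in TG (2.89-fold). Without surgery it lay between 94 and 409 CPM, a range that contains every IRI value and none of the NX values. That setting of levels crosses the 2 separately normalized tables and was not tested. Collecting duct markers summed to 560 to 737 CPM in NX libraries, 551 to 1120 CPM in IRI libraries and 714 to 2065 CPM without surgery, and their part in the Cryab levels was not tested.

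Hspb8, the small heat shock protein that partners Bag3 (chromosome 5, ENSMUSG00000041548, 116546550 to 116560923, minus strand), was the least expressed member. It stood at 7.66, 4.94 and 3.8 CPM in WT NX and from 7.92 to 9.22 CPM in 5 WT IRI libraries, with 25.6 CPM in WT IRI replicate 5. The difference of 1.03 ± 0.40 did not pass in WT (adjusted p = 0.0576). It passed without WT NX replicate 0 (1.38, adjusted p = 0.0396), without WT IRI replicate 0 (1.12, adjusted p = 0.0478) or without WT IRI replicate 3 (1.13, adjusted p = 0.0492), and without WT IRI replicate 5 it was 0.64 (adjusted p = 0.125). In TG it went from 4.55, 1.22 and 2.84 CPM to between 5.63 and 11.8 CPM, a rise of 1.67 ± 0.42 (3.19-fold, adjusted p = 0.00488).

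**Figure D3:**
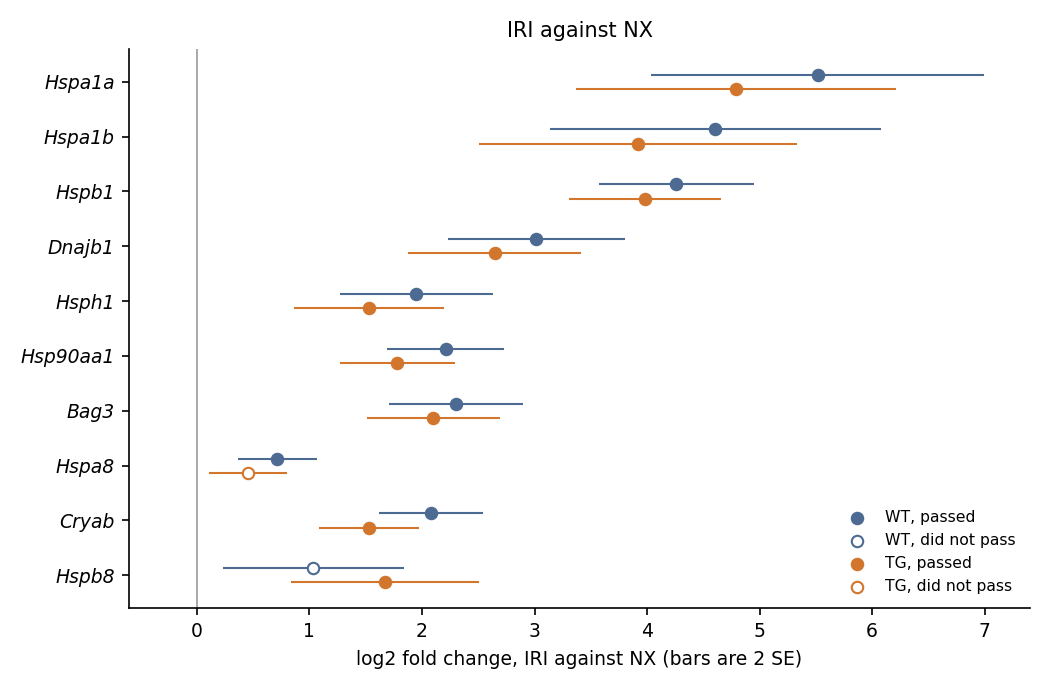
Log2 fold change of each chaperone gene, IRI against NX, in WT (blue) and TG (orange); filled points passed the edgeR test, open points did not, and bars reach 2 SE to either side. The estimates run from 0.46 for Hspa8 in TG to 5.52 for Hspa1a in WT.

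The genotype by injury interaction, which tests whether these changes differ between WT and TG, passed for 0 members and for 0.0% of the 19264 genes. At an unadjusted p under 0.05 it also held no member, the member with the smallest p being Cryab (-0.55 ± 0.29, adjusted p = 0.572), and DESeq2 and limma-voom called 0 members. The interval of 2 SE around the interaction reached from -2.28 to 0.83 for Hspa1a with 3 NX libraries a group, a range that holds differences of either sign. Without WT IRI replicate 1 no member passed either, and the smallest adjusted p was 0.553 (Cryab). WT and TG changes passing separately, or not, for Hspa8 and Hspb8 are therefore not shown to differ.

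The rest of the chaperone system is described by 11 gene lists, of whose 90 tested genes 29 rose and 6 fell in WT and 25 rose and 5 fell in TG after IRI. Of all 19264 genes tested, 16.8% were called higher and 14.1% lower in WT, and 16.4% higher and 13% lower in TG. The mRNA of Hsf1 itself did not pass, at 24.4 CPM in WT NX and 25.7 CPM in WT IRI libraries (0.06 ± 0.12, adjusted p = 0.765). Hsf2, a related factor, rose by 0.47 ± 0.16 in WT (13.5 ± 1.29 to 18.9 ± 3.05 CPM) as the only gene of 7 heat shock factors and regulators that edgeR called, where DESeq2 called 2. In TG edgeR and DESeq2 called 0 of the 7, and 0 had an unadjusted p under 0.05. Of 10 other cytosolic J proteins, 8 rose and none fell in WT, and 6 rose in TG. Dnajb4, a relative of Dnajb1, rose by 2.51 ± 0.24 in WT (5.70-fold, 38.8 ± 10.8 to 224 ± 39.2 CPM), Dnajb5 by 1.67 and Dnaja1, the abundant farnesylated J protein, by 1.13. Of 8 other HSP70 and HSP110 genes, 3 rose and 2 fell in WT, and 1 rose and 1 fell in TG. Hspa1l, which lies beside Hspa1a, was among those that rose in WT (3.14 ± 0.74), and its change of 1.04 in TG did not pass. Its level was very low, at 0.153 ± 0.17 CPM in WT NX and 1.38 ± 0.483 CPM in WT IRI libraries.

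Of 5 other small heat shock genes tested, 1 rose in each genotype, Hspb7 (1.35 in WT, 2.92 ± 0.0963 to 7.57 ± 1.02 CPM). Of 8 BAG and exchange factor genes, 2 rose and 0 fell in WT (Bag2 by 0.96 and Bag5 by 0.21), and 2 rose and 1 fell in TG. Of 10 genes for HSP90 and its cochaperones 2 rose in each genotype, and in WT these were Hsp90ab1 and Unc45a (0.30). Of 8 subunits of TRiC, the ring-shaped folding chamber, 1 rose in WT (Cct2, by 0.19) and 2 in TG. Most genes of those 4 lists did not pass, and counts such as 1 of 5 or 2 of 8 are near the shares over all genes.

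Chaperones of other compartments changed in part, with counts of 2 of 8 and 3 of 12 higher that are also near those shares. Of 8 mitochondrial chaperones, 2 rose and 1 fell in each genotype, with Hspe1 (HSP10) up by 0.94 and Hspd1 (HSP60) up by 0.77 in WT, where Dnaja3 fell by 0.45. Of 12 chaperones of the endoplasmic reticulum, 3 rose and 1 fell in WT and 3 rose and 0 fell in TG. Hspa5 (BiP) rose by 0.77 ± 0.15 in WT, from 901 ± 226 to 1556 ± 227 CPM, Dnajb9 by 1.02 and Serpinh1, the collagen chaperone and itself a heat shock gene, by 0.94. Of 9 ubiquitin and autophagy genes, 5 rose and 1 fell in each genotype, among them Ubb (1.06) and the autophagy receptor Sqstm1 (0.95) in WT. Of 5 genes of the osmotic response, 1 rose and 1 fell in each genotype, and in WT Nfat5, its transcription factor, rose by 0.97 while the taurine transporter gene Slc6a6 fell by 0.67. The medians of these 11 lists lay between -0.12 and 0.58 in WT, below the 2.26 of the 10 members.

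TG against WT after IRI compares levels between the genotypes among the IRI libraries. It does not compare their changes from NX, which the interaction tests. Inducible HSP70 was lower in TG: Hspa1a and Hspa1b fell below WT and passed, and the other 8 members did not pass. In all, 0.0643% of 17111 genes tested were called lower. Hspa1a stood at 1520, 999, 1249, 1469, 2141 and 1928 CPM in WT IRI replicates 0 to 5 and at 329, 910, 324, 513, 577 and 538 CPM in the TG ones, and Hspa1b at 1349 to 2550 CPM in WT (median 2121) and 437 to 1346 CPM in TG (median 702). All 6 TG libraries lay below all 6 WT libraries for both genes. The gap was narrow, since WT replicate 1, the library with EGFP counts, was the lowest of its group (999 and 1349 CPM) and TG replicate 1 the highest of its own (910 and 1346 CPM). The same order held for 0.514% of all genes tested. Hspa1a was 2.92-fold lower (-1.55 ± 0.24, adjusted p = 0.0435) and Hspa1b 2.73-fold lower (-1.45 ± 0.24, adjusted p = 0.0435). Given the shared sequence of these genes, they count as a single measurement of inducible HSP70 rather than as separate ones.

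**Figure D4:**
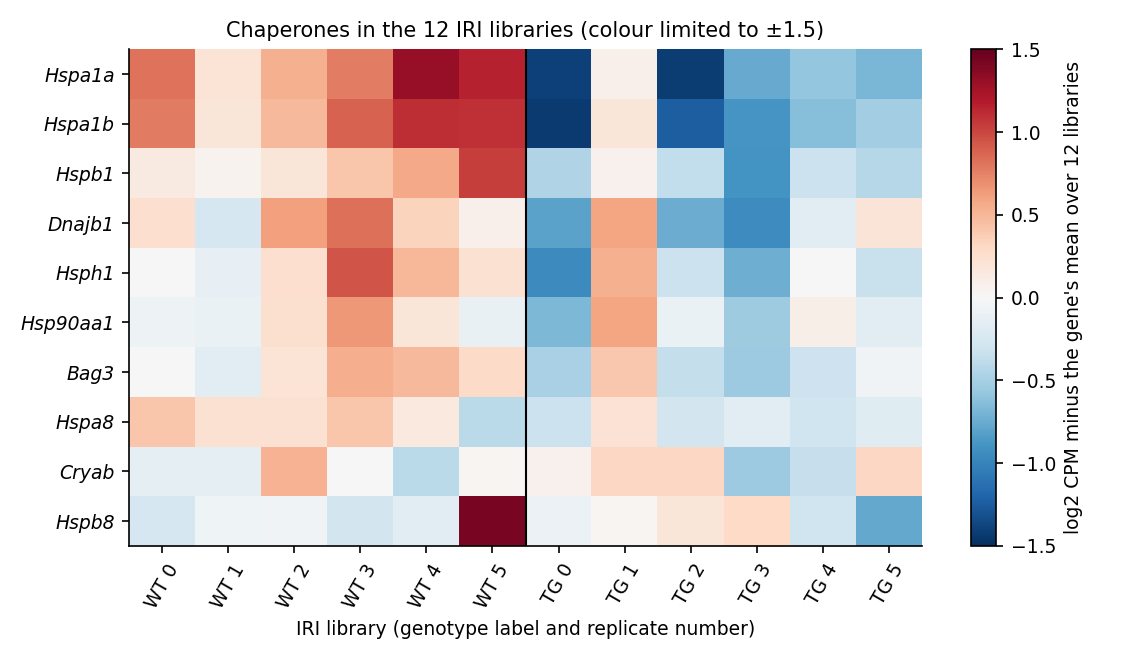
Levels of the 10 genes in each IRI library, as log2 CPM minus the gene's mean over the 12 libraries (red higher, blue lower), with WT replicates left and TG replicates right of the line. Hspa1a and Hspa1b are the genes in which every TG library lies below every WT library, and TG replicate 1 is the highest TG library for 8 genes.

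None of the other 8 members passed. Hspb1 stood at 288 ± 80.7 CPM in WT and 163 ± 34.4 CPM in TG (n = 6 each), overlapping in a single pair of libraries, TG replicate 1 at 221 CPM and WT replicate 1 at 220 CPM. Its difference of -0.82 ± 0.17 did not pass (adjusted p = 0.103), though DESeq2 called it (-0.82, adjusted p = 0.00101) and so did edgeR without the count filter (adjusted p = 0.0384). The next were Hsph1 (-0.56 ± 0.23, adjusted p = 0.310), Dnajb1 (-0.54 ± 0.25, adjusted p = 0.350), Bag3 (-0.43 ± 0.16, adjusted p = 0.281), Hspa8 (-0.36 ± 0.13, adjusted p = 0.269) and Hspb8 (-0.32 ± 0.29). For Hsp90aa1 the difference was -0.23 ± 0.19, and for Cryab it was 0.05 ± 0.17. Without WT IRI replicate 1 these 8 differences ran from -0.89 (Hspb1, adjusted p = 0.0795) to 0.02 (Cryab), and again none passed. In all, 9 of 10 estimates were below 0 (Cryab was the exception), with a median of -0.49 against -0.01 over all genes, and for the 8 that did not pass, WT and TG libraries overlapped. Of 88 genes tested in the 11 other lists, edgeR called 0, with 10 at an unadjusted p under 0.05, and DESeq2 called 1 higher and 1 lower. Hsf1 mRNA differed by 0.02 ± 0.10.

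**Figure D5:**
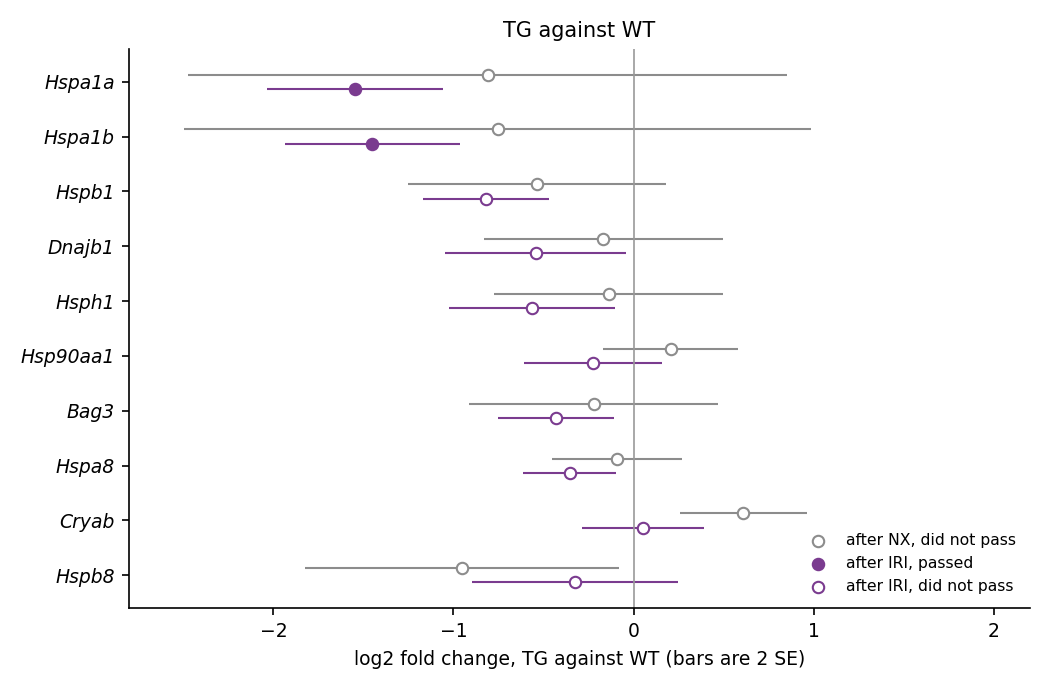
Log2 fold change of each chaperone gene in TG against WT, after NX (grey) and after IRI (purple); filled points passed the edgeR test, open points did not, and bars reach 2 SE to either side. After IRI the Hspa1a and Hspa1b bars end at -1.06 and -0.96, while after NX they extend past 0.

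How firmly the HSP70 difference passes depended on single libraries and on the fit. Without WT IRI replicate 1, which holds EGFP counts, it was -1.65 for Hspa1a (adjusted p = 0.0392) and -1.55 for Hspa1b (adjusted p = 0.0434), with WT means of 1661 ± 363 and 2198 ± 371 CPM (n = 5). The adjusted p of Hspa1a was 0.105, 0.113 and 0.0659 without WT replicates 0, 4 and 5, and 0.0728, 0.0925, 0.0925 and 0.118 without TG replicates 0, 2, 3 and 5, and Hspa1b was lost with the same libraries (0.0750 to 0.132) and without TG replicate 4 (0.0551). The estimates themselves stayed between -1.77 and -1.43 for Hspa1a and between -1.70 and -1.33 for Hspa1b in all 12 such fits. In a fit of all 18 NX and IRI libraries, whose pooled spread includes the variable NX levels, the values were -1.53 (adjusted p = 0.166) and -1.44 (adjusted p = 0.207).

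No cell type marker gene was called between TG and WT after IRI, and the summed levels of several lists differed between the same libraries. Red cell genes, 5 of 5 with estimates below 0 in TG and none called, summed to 108 to 1312 CPM in WT IRI libraries (median 369) and to 28.4 to 149 CPM in TG ones (median 42.2; median change of the genes -2.91), after 35.3 to 119 CPM in WT NX and 3.65 to 18.9 CPM in TG NX libraries. Leukocyte genes, 6 of 7 below 0 and none called, summed to 34.5 to 131 CPM in WT and 29.4 to 70.6 CPM in TG. None of the 5 red cell or 7 leukocyte genes was at 0 throughout a group. Endothelial genes, 5 of 5 below 0 (median -0.29), summed to 204 to 421 CPM in WT and 190 to 265 CPM in TG, and podocyte genes, 5 of 5 below 0 (median -0.29), to 260 to 529 CPM and 257 to 298 CPM. Genes of the loop of Henle, 5 of 5 below 0 (median -0.26), summed to 3671 to 6354 CPM in WT and 2881 to 4655 CPM in TG. Distal tubule genes were 6 of 6 below 0 (median -0.20, 2018 to 4492 CPM in WT and 2176 to 2873 CPM in TG) and collecting duct genes 7 of 9 (median -0.24, 609 to 1120 CPM and 551 to 888 CPM). Proximal tubule genes, 7 of 8 below 0 (median -0.07), summed to 10448 to 13443 CPM in WT and 10288 to 12325 CPM in TG. Smooth muscle genes, 3 of 5 below 0 (median -0.03), summed to 53.6 to 126 CPM in WT and 59.1 to 128 CPM in TG. All of these ranges after IRI overlapped between the genotypes, whereas the red cell ranges after NX did not. The WT upper ends for red cell, leukocyte, collecting duct and proximal tubule genes all came from WT IRI replicate 5. The next highest WT IRI sums were 492, 66.5, 869 and 13088 CPM. The part of any of these cell types in the HSP70 difference was not tested.

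Within a genotype, the members did not all rise and fall together between injured kidneys. Over 6 WT IRI libraries the Pearson correlation of log2 CPM of Hspa1a with the other 9 members ran from -0.46 (Hspa8) to 0.97 (Hspa1b), and over 6 TG IRI libraries from -0.16 (Hspb8) to 0.97 (Hspa1b). None of the 18 relations had an adjusted p under 0.05 in an exact permutation test, since the adjusted p was 0.05 for Hspa1b in each genotype (raw p = 0.00417 in WT and 0.00556 in TG, Spearman's rho 0.94 and 0.89, raw p = 0.0167 and 0.0333, adjusted p = 0.3 for rho). Without the 2 libraries farthest from the median of Hspa1a, r with Hspa1b was 0.94 in WT and 0.95 in TG. Given the shared sequence of Hspa1a and Hspa1b, this relation is not one between separate measurements. In WT, Hspa1a was highest in replicates 4 and 5, whereas Dnajb1, Hsph1, Hsp90aa1 and Bag3 were highest in replicate 3. In TG, replicate 1 was highest for 8 members, the exceptions being Cryab and Hspb8.

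As a description over the 12 IRI libraries, with each genotype centred at its own mean, Bag3 followed the average of the 10 members most closely (r = 0.96), then Hsph1 (0.92), Hspa1b (0.88), Dnajb1 (0.88) and Hsp90aa1 (0.87). Hspa8 (0.34), Cryab (0.37) and Hspb8 (0.02) followed it least, although each is itself part of the average. Outside the members, the genes most like that average among 9987 compared were Nf1 (0.93), Ankrd50 (0.90), Uspl1 (0.89), Cul4b (0.86) and Kif26b (0.86). Their own levels differed little between genotypes, for example Nf1 at 36.6 CPM in WT and 40.8 CPM in TG after IRI. Within a library all genes share its preparation and depth, and total counts of the 12 IRI libraries ran from 61649151 to 90668847. The deepest of them, TG replicate 1, was also the highest TG library for 8 members. The part of depth in these correlations was not tested, and no test of them was made.

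After NX alone no member passed between TG and WT, where 0.0117% of 17100 genes were called in either direction. At an unadjusted p under 0.05 there was 1 member, Cryab, which lay higher in all 3 TG libraries (52.9 to 64 CPM) than in all 3 WT libraries (29.7 to 50 CPM), an order that 7.89% of all genes shared. Its difference was 0.61 ± 0.18 (adjusted p = 0.730), and edgeR without the count filter called it (0.62, adjusted p = 0.0242), while DESeq2 called 0 members. For Hspa1a the difference of -0.81 ± 0.83 had an interval of 2 SE from -2.47 to 0.85, which contains the -1.55 found after IRI. The highest library of each group, WT replicate 1 and TG replicate 0, held the top value for 9 of the 10 members in its group.

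Without surgery no member passed between TG and WT in males, where 0.00523% of 19126 genes were called, or in females, where 0.0418% were. In males Hspa1a was at 19.8 ± 7.24 CPM (WT) and 24.1 ± 13 CPM (TG), and in females at 26.4 ± 8.06 CPM (WT) and 30.9 ± 12.3 CPM (TG; n = 3 each). Its transcripts were thus present in uninjured kidneys of both genotypes, at levels that overlapped between all 4 groups. Constitutive Hspa8 was at 2336, 2054 and 2159 CPM in WT males and at 1637, 1843 and 1351 CPM in TG males. All 3 TG libraries were below the WT ones, an order that 4.66% of genes shared, and the difference of -0.44 ± 0.13 did not pass (adjusted p = 0.916). In females Hspa8 was at 1973 ± 236 CPM in WT and 1925 ± 238 CPM in TG. At an unadjusted p under 0.05 Hspa8 was the only member in males and Hsp90aa1 (0.24 ± 0.11, adjusted p = 0.512) the only one in females, and DESeq2 called 0 members in each sex.

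Bag3 was the only member that passed between the sexes in the fit without a replicate block. It stood at 36.2, 35.5 and 32.7 CPM in WT males and 41.4, 43.6 and 44.3 CPM in WT females, and at 32.8, 35.6 and 39.8 CPM in TG males and 39.9, 44.2 and 45.8 CPM in TG females. All female libraries lay above all male libraries of their genotype, in TG only narrowly (39.8 against 39.9 CPM), an order that 18.6% of all genes shared in WT and 19.9% in TG. Hspb8 had the same order in TG (4.18 to 5.87 CPM in males and 5.89 to 7.20 CPM in females) but did not pass (0.36 ± 0.24, adjusted p = 0.343). Bag3 was 1.24-fold higher in WT females (0.31 ± 0.08, adjusted p = 0.0190) and 1.20-fold higher in TG females (0.26 ± 0.08, adjusted p = 0.0430), where 10.1% and 9.87% of all genes were called higher, so 1 of 10 members is near the background. The call was lost in WT without male replicate 2 (adjusted p = 0.0663) or female replicate 2 (adjusted p = 0.0680), and in TG without male replicate 0 (0.167) or 1 (0.0983) or female replicate 1 (0.109) or 2 (0.147), these last 4 being adjusted p-values. Collecting duct markers also differed, with sums of 714 to 1112 CPM in WT males and 1483 to 2065 CPM in WT females, and 869 to 1330 CPM in TG males and 1173 to 1589 CPM in TG females. Their part in the Bag3 difference was not tested. The genotype by sex interaction called 0 members and 0.00523% of all genes, with Hspa8 the only member at an unadjusted p under 0.05 (0.40 ± 0.18, adjusted p = 0.568), and DESeq2 called 0 members.

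The library numbered 0 was the lowest of its group in all 4 groups without surgery for 5 of the 10 members: Hspa1a, Hspa1b, Hspb1, Hsph1 and Cryab. This order held for 5.23% of all genes tested. For Hspa1b these libraries stood at 26.8, 30, 53.2 and 42.9 CPM, against 53.7 to 122 CPM in the 8 others. For Cryab they stood at 94, 117, 142 and 147 CPM against 218 to 409 CPM in the others. Summed collecting duct markers were also lowest in replicate 0 of each of the 4 groups (714, 869, 1483 and 1173 CPM), and the labels do not say what libraries of the same number share. The part of collecting duct RNA in the members' order was not tested.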

How the data were processed

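The authors trimmed reads with fastp 0.23.2, aligned them with STAR 2.7.0 to GRCm39 and counted them with featureCounts 2.0.3, per the submitters' processing notes and the file headers. The authors deposited raw gene counts in 2 tables (12 no-surgery libraries; 18 NX and IRI libraries), with Ensembl identifiers plus an EGFP entry. Whether strand or pairs were counted is not legible in the headers. With the smallest counts of each library left out, 37.3 to 41.9% of counts were odd, so counts were also halved as an alternative. Gene symbols matched 51881 identifiers (90.8%).

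Tests were edgeR 4.0.16 (two-sided quasi-likelihood, TMM, filterByExpr, adjusted over all genes) in R 4.3.3, checked on simulated counts. TG against WT after NX or IRI used those 2 groups, IRI against NX and the interaction all 18 libraries, and no-surgery comparisons all 12. Alternatives used DESeq2 1.42.0, limma-voom 3.58.1, other scaling, no count filter, a replicate block and leaving out each library. CPM are TMM-scaled, and log values use a prior count of 2. A pooled correlation over 12 IRI libraries had been planned, but the genotypes do not overlap in Hspa1a, so it was computed within each genotype.

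The members and lists were chosen with earlier results of these data known. Named genes are the 10 members, Gsta2, EGFP, Hsf1, Hsf2, Hsp90ab1, Hspa5, up to 3 called genes per list with the largest change in WT and at least 1 CPM, and the 5 genes most like the members' average with a mean of at least 5 CPM. Counting error is small at these totals.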

Additional observations from a re-analysis of the deposited data

Results flagged for a closer look

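In 2 of 24 sets of 6 values tested, 1 library stood far from the other 5 by Dixon's criterion, and chance alone flags about 1 in 20. The sets all come from the same 12 IRI libraries, so they are not independent. Hspb8 was at 25.6 CPM in WT IRI replicate 5, against 7.92 to 9.22 CPM in the other WT IRI libraries. The same library held the highest red cell (1312 CPM), leukocyte (131 CPM), collecting duct (1120 CPM) and proximal tubule (13443 CPM) sums of the IRI libraries. The part of these cell types in the Hspb8 value was not tested. Hspa8 was at 4315 CPM in TG IRI replicate 1, against 2973 to 3290 CPM in the other TG IRI libraries, and that library was also the highest of its group for 7 other members.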

How the results depend on the processing

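For IRI against NX, each called member kept its direction and its call under every alternative run, with 9 to 10 members called in each genotype. For TG against WT after IRI, 2 members were called with RLE or upper-quartile factors, halved counts and limma-voom, 3 with DESeq2 or without the count filter, 0 with all 18 libraries in the fit, and 0 to 2 when each library was left out. Shared replicate numbers were not treated as pairs, because the deviations of same-numbered libraries from their group means correlated between -0.03 and 0.31 and in no comparison did every pair exceed 0.1. As a hint from the data, each WT male and WT female library without surgery correlated best with its own number in the other sex (0.21, 0.16 and 0.05). So did WT NX replicates 0 to 2 with the WT IRI libraries of the same number (0.07, 0.09 and 0.03). Between TG and WT not every library did, though replicate 0 did without surgery in males (0.31) and females (0.19). With the number as a replicate block, 0 members were called after IRI (Hspa1a -1.61, adjusted p = 0.0574; Hspa1b -1.53, adjusted p = 0.0607), and 4 between the sexes in WT, all higher in females (Hspa1b 0.76, adjusted p = 0.0113; Hspb1 0.76, 0.0285; Bag3 0.31, 0.0156; Cryab 0.61, 0.00787). Without the count filter 1 member was called after NX and 0 between the sexes in TG. Leaving out 1 library gave 0 to 1 members between the sexes in each genotype. It moved the log2 ratio of Hspa1a plus Hspa1b to Hspa8 between 4.50 and 5.89 in WT and 3.49 and 4.45 in TG, and that of Hsp90aa1 to Hsp90ab1 between 1.19 and 1.27 in WT and 0.83 and 0.98 in TG. Without an NX library the smallest adjusted p these exact tests allow is 0.0714. Without WT IRI replicate 1, the WT correlations of Hspa1a with Dnajb1 and Hsp90aa1 turned to -0.63 and -0.36. The causes were not tested.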
